A study of Mus musculus with 14 samples.

Results

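Stem cells sorted from organoids were set against intact organoids, with both kept in the gastric culture medium as far as the sources state it. Of the 14 arrays in the series, 7 entered the comparison. The sorted arm held 5 arrays of Lgr5-EGFP-bright cells, 3 from small intestine (named control SI SCs) and 2 from stomach (named control Sto SCs). The whole arm held SI organoids in gastric medium (SI organoids Sto med, n = 1) and Sto organoids in gastric medium (Sto organoids Sto med, n = 1). Arrays were assigned to the arms by label alone, while the comparison and the gene lists were chosen with earlier results of these data known. Where a gene had several probe sets, the brightest by its mean on the 14 arrays stood for it, which gave 18820 genes.

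All 4 groups were labelled with the genotype Cdx2-/fl / Lgr5-EGFP. Every group thus carried 1 null and 1 floxed allele of Cdx2, the intestinal homeobox factor, and a green fluorescent reporter knocked in at Lgr5, and none of the 4 was labelled as recombined. The gastric medium adds Wnt3a-conditioned medium, Fgf10 and gastrin to the EGF, Noggin and R-spondin of the intestinal medium. For the sorted cells the gastric medium is given in the study, for 2 samples of each stem cell type, and not in the labels, and the methods name the intestinal medium as another in which control SI SCs grew. The medium of each control SI SC array is therefore not settled by these sources. The sorted cells were the brightest for Lgr5-EGFP and came from organoids that had each grown from a single stem cell, whereas the study describes the organoids on arrays as grown from glands or crypts of wild-type animals, which differs from their label. Sorting required dissociation into single cells and passage through a flow cytometer, and the methods give a separate small-scale RNA extraction for the sorted cells. Sorting, dissociation, clonal growth and the choice of Lgr5-bright cells therefore differed together between the arms and cannot be told apart. Extraction may have differed with them, as the methods name none for the organoids on arrays. Nothing in the labels says that arrays of a group came from separate mice, so p-values measure the spread between arrays, which may be technical.

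Immediate early genes are transcribed within minutes of a stimulus from factors that the cell already holds, with no need for new protein. They include the Fos and Jun families, whose proteins pair as the AP-1 factor, the Egr zinc finger factors and the Nr4a nuclear receptors. Many stimuli induce them, among them growth factors, serum, and the enzymatic dissociation of tissue. Serum response factor, which binds the CArG box, and the factors that bind the cAMP response element, with its half-site TGACG, are well known regulators of their promoters.

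Promoters of 5 immediate early factors that were higher in the sorted cells are shown. Bases before the start can hold well known control elements of immediate early genes. The promoter of Slc9a3, another of the 3 genes with the smallest p and no immediate early gene, is placed beside them. Each window holds the 250 bases before the transcription start in RefSeq (GRCm38.p6), read 5′ to 3′ on the strand of the gene. Capitals mark TGACG on either strand (seen as CGTCA where it lies on the other strand) and the CArG box.
Fosb, chr7:19310046-19310295, minus strand: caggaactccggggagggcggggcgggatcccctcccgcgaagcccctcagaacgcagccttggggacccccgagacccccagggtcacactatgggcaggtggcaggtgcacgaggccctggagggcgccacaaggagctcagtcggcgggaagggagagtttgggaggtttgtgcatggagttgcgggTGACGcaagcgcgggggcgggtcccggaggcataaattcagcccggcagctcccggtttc
Fos, chr12:85473640-85473889, plus strand: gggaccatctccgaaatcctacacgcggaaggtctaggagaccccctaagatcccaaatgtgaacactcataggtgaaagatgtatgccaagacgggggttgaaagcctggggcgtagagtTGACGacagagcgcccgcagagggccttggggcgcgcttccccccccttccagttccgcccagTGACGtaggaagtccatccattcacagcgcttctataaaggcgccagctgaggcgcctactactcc
Egr2, chr10:67537680-67537929, plus strand: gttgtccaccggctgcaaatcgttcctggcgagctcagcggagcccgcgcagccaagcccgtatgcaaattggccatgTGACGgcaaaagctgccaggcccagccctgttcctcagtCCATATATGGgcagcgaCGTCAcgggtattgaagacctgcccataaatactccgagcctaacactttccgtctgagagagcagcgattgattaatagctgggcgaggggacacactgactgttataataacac
Nr4a1, chr15:101266596-101266845, plus strand: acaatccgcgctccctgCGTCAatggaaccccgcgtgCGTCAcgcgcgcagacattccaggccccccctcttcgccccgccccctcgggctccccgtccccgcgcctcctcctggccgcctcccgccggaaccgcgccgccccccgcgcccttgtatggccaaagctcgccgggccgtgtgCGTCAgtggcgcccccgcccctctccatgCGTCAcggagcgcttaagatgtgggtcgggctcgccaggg
Atf3, chr1:191183334-191183583, minus strand: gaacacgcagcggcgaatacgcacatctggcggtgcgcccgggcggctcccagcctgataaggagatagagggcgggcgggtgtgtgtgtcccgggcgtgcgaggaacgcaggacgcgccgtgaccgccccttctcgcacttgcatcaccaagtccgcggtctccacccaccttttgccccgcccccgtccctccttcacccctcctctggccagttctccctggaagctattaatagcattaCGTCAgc
Slc9a3, chr13:74121163-74121412, plus strand: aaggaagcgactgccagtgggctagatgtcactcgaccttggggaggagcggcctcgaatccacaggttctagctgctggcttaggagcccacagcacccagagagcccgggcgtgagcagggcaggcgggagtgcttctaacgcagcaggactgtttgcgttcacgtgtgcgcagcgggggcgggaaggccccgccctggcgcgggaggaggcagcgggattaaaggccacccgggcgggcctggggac
The Egr2 window is the most downstream of 5 RefSeq starts. TGACG occurred on either strand of the windows of all 5 factors, 4 times for Nr4a1, and not in that of Slc9a3. Of the 12 genes called higher, 10 had a RefSeq window and 8 of these held TGACG, against 17.8% of all 32851 windows. The 8 genes with TGACG included genes outside the immediate early lists, so the window of Slc9a3 does not stand for all such genes. A gene with several starts had several windows in which the letters could occur. Among the 18 genes called lower, 14 had a counted window and 4 of them held TGACG. Among called genes with a counted window, a CArG box was found for 1, Egr2, and in 1.47% of all windows. Bases further upstream than 250 were not searched, so a box there would be missed, and Egr1 was not searched at all. The AP-1 motif (TGACTCA or TGAGTCA, either strand) was in no counted window of a gene called higher. It was in counted windows of 2 genes called lower, and in 4.46% of all windows.

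The Cdx2 level of the 7 libraries followed their labelled tissue. Cdx2 lay at 9.04, 10.05 and 8.94 on the log2 scale in the control SI SCs and at 9.19 in the SI organoids. The Sto arrays had 5.08 and 4.67 when sorted and 4.57 when whole. Epcam, the epithelial adhesion molecule, ranged from 11.24 to 11.66 over the 7 arrays, and the leukocyte marker Ptprc from 3.75 to 4.33. Lgr5, the gene used for the sort, was at 11.56, 11.30 and 10.79 in the control SI SCs and at 10.77 and 11.14 in the control Sto SCs. It was at 9.95 in the SI organoids and 9.29 in the Sto organoids, so every sorted array lay above both whole arrays. Its fitted difference of 1.45 ± 0.24 (SE) was not called (adjusted p = 0.0858), and as the gene that defined the gate it is no finding. One sorted array stood apart. Control SI SCs 3 had been exported in another way, with an upper quartile of 7.50 against 7.83 to 7.90 on the other 6. Of the 7 arrays, 3 had Kdm5d, on the Y chromosome, above Xist, the RNA of the inactive X chromosome. They were control SI SCs 1 and 3, and the Sto organoids. Each arm thus held both sexes, but within Sto the whole array had Kdm5d above Xist and neither sorted array did. Sex and sorting therefore cannot be told apart within Sto.

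Sorted cells differed from whole organoids in 30 genes (limma with the tissue of origin as a term, adjusted p under 0.05 and at least 2-fold). Of these, 12 were higher in the sorted cells, which is 0.0638% of the 18820 genes tested, and 18 were lower, which is 0.0956%. At an unadjusted p under 0.05 there were 2398, of which 966 were higher and 1432 lower. With calls this rare, 0 called members is the likely count for a short gene list and says little about it. The 12 higher genes were led by immediate early genes, 6 of them transcription factors (Fosb, Egr2, Nr4a1, Fos, Atf3 and Egr1) and 1, Arc, a cytoskeletal protein. Differences are fitted log2 values of sorted minus whole with their SE, and levels are log2 signals of single arrays.

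The difference was largest for Fosb, an AP-1 subunit. Its level was 11.26, 10.79 and 10.01 in the control SI SCs and 12.03 and 11.28 in the control Sto SCs, against 4.63 in the SI organoids and 5.27 in the Sto organoids. All 5 sorted arrays lay far above both whole arrays. The difference was 6.21 ± 0.35, or 74.1-fold (adjusted p = 0.0027), and it stayed between 6.04 and 6.39 whichever of the 7 arrays was left out. On the 7 arrays outside the comparison, Fosb was at 11.51 and 10.97 in the sorted Cdx2null SI SCs. It was between 4.83 and 6.81 in the 5 whole organoid arrays grown in intestinal medium.

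Fos, the other AP-1 subunit called, was at 11.03, 10.75 and 10.52 in the control SI SCs and at 11.08 and 10.89 in the control Sto SCs. The whole organoids had 7.48 (SI) and 8.01 (Sto). The arms were separate and the 5 sorted arrays lay close together, and the difference was 3.14 ± 0.18, or 8.83-fold (adjusted p = 0.0027). Egr2, a zinc finger factor, was at 8.84, 8.50 and 7.89 in the control SI SCs and at 9.82 and 9.04 in the control Sto SCs, against 4.53 and 4.46 in the whole organoids. It rose by 4.40 ± 0.36, or 21.1-fold (adjusted p = 0.0273). Egr1, of the same family, was at 10.61, 10.12 and 10.32 in the control SI SCs and at 10.82 and 10.10 in the control Sto SCs, and at 7.86 and 8.54 in the whole organoids. Its rise of 2.22 ± 0.25 (adjusted p = 0.0412) was the smallest among the 6 called factors.

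Nr4a1, an orphan nuclear receptor, was at 10.96, 10.57 and 9.90 in the control SI SCs and at 11.28 and 10.66 in the control Sto SCs. Both whole arrays were lower and nearly equal, at 7.43 (SI) and 7.46 (Sto). It rose by 3.26 ± 0.31, or 9.59-fold (adjusted p = 0.0346). Atf3, a stress-induced factor of the ATF/CREB family, was at 11.19, 10.72 and 10.66 in the control SI SCs and at 11.73 and 11.21 in the control Sto SCs, against 8.44 in the SI organoids and 7.52 in the Sto organoids. Its rise was 3.14 ± 0.36 (adjusted p = 0.0412). By origin, Atf3 was 2.41 higher in sorted SI cells and 3.95 higher in sorted Sto cells, and the test of that difference gave adjusted p = 0.841. Arc, best known from neurons, was at 8.75, 8.03 and 8.42 in the control SI SCs, at 8.36 and 7.46 in the control Sto SCs, and at 5.12 and 5.11 in the whole organoids. It rose by 3.05 ± 0.30 (adjusted p = 0.0354).

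The remaining called rises were outside the immediate early lists. Slc9a3 encodes the sodium/proton exchanger of the enterocyte brush border. It was at 10.17, 9.36 and 9.62 in the control SI SCs and at 11.50 and 11.23 in the control Sto SCs, against 5.62 in the SI organoids and 7.02 in the Sto organoids. The sorted Sto cells, of gastric origin, thus had a higher level than the sorted SI cells. The difference was 4.21 ± 0.23, or 18.6-fold (adjusted p = 0.0027). Unlike Fosb, Slc9a3 was not uniformly low in whole organoids outside the comparison: SI organoids in intestinal medium had 10.78, 8.37 and 7.79, and Sto organoids in intestinal medium had 3.73 and 4.40. The 10.78 is from the library labelled SI organoids SI med 1, whose Cdx2 level of 5.52 went against its label.

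Amt, the aminomethyltransferase of the glycine cleavage system, was between 7.10 and 8.11 in the 5 sorted arrays and at 5.37 and 6.26 in the whole organoids, a rise of 2.03 ± 0.23 (adjusted p = 0.0412). Ppargc1a, a coactivator of mitochondrial gene expression, was between 8.96 and 9.95 when sorted and at 7.66 and 7.85 when whole, and it rose by 1.78 ± 0.21 (adjusted p = 0.0412). Cabcoco1 rose by 1.23 ± 0.14, from 6.78 and 6.19 in the whole organoids. The last of the 12 was a predicted gene, 1700019D03Rik, and it alone among the rises had arms that touched: 6.003 in the SI organoids and 6.003 in the lower sorted Sto array. Within each tissue of origin, all 12 called rises had every sorted array above the whole array, which was so for 10.4% of all genes. The call was made on these same arrays and selects such genes, so this is no separate support. Among genes higher in sorted cells by at least 2-fold, the next by p was Zfp36, which destabilises AU-rich mRNAs (difference 1.78 ± 0.23, adjusted p = 0.0564, not called).

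**Figure D1:**
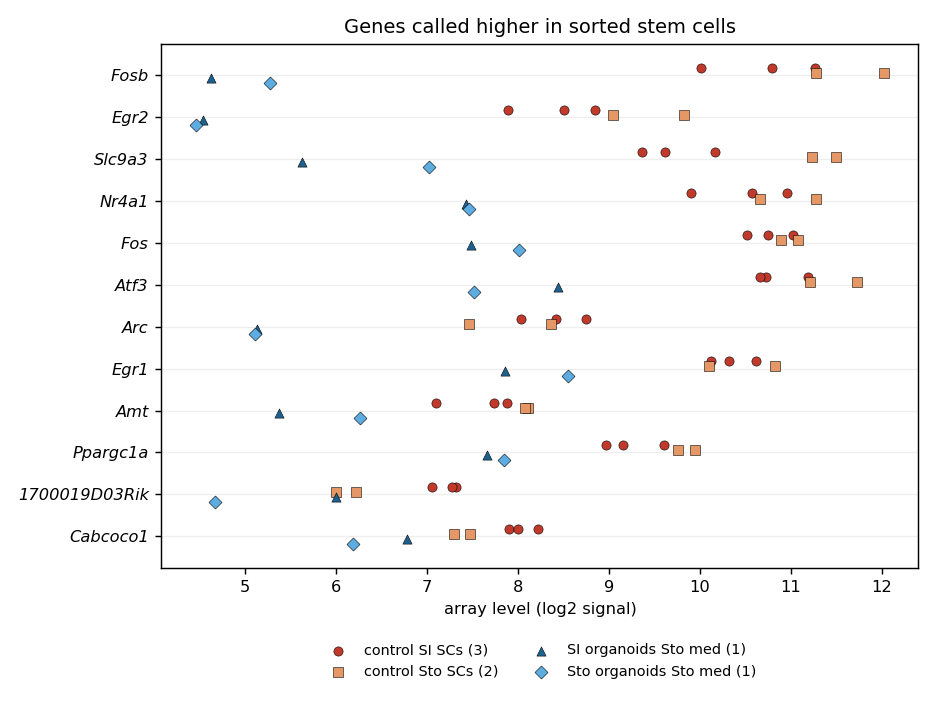
Log2 level of the 12 genes called higher in sorted stem cells, on each of the 7 arrays (x axis, log2 signal; 1 row per gene, ordered by the fitted difference; red circles and orange squares are sorted SI and Sto stem cells, blue triangles and light blue diamonds whole SI and Sto organoids). Fosb has the widest gap, with the whole organoids at 4.63 and 5.27 and the sorted arrays from 10.01 to 12.03.

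The call of most of these genes depended on the small number of arrays. Fosb, Fos and Slc9a3 were called in all 7 fits that left out 1 array, Egr2 in 5, Nr4a1 and Arc in 2, Egr1 and Atf3 in 1, and the other 4 rises in none. With 1 whole array of each origin, permuting the arm within origin allows only 12 arrangements and cannot give an exact p under 0.0833, so no such test was run.

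The rest of the immediate early factors gave a graded picture. Of the 25 genes listed, 24 were measured (all but Fosl1), with 6 called higher and 0 lower. Their median difference was 0.893, against -0.013 over all genes. This list, like the others, was chosen with earlier results of these data known. In 15 of the 24 every sorted array was above the whole array of its origin, and in 1, Mafk, every one was below it. Over all genes these shares were 10.4% above and 15.4% below. Factors short of the call included Egr3 (1.68 ± 0.25, adjusted p = 0.0792), Klf4 (1.44 ± 0.30, adjusted p = 0.122), Klf2 (1.22 ± 0.32), Ier2 (1.21 ± 0.21, adjusted p = 0.0988) and Jun (1.20 ± 0.24, adjusted p = 0.118). Jun, the partner of Fos in AP-1, was at 10.63 and 10.60 in whole organoids and from 11.32 to 12.35 in sorted cells, with no overlap. Klf10 (0.92), Klf6 (0.87), Nr4a3 (0.72), Csrnp1 (0.60) and Srf (0.40), the serum response factor itself, had smaller differences, none called. Another set lay close to zero. Nr4a2 differed by 0.21, Junb by 0.20, Jund by 0.18, Myc by 0.00, Ier5 by -0.01, Fosl2 by -0.04, and Maff by -0.23, each with an adjusted p of at least 0.765. Several of these near zero took the other sign when 1 array was left out. Mafk differed by -0.69 ± 0.30 (adjusted p = 0.405).

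Immediate early feedback genes, the phosphatases and RNA decay factors that follow the first wave, had 26 measured members and a median difference of 0.399. Of these members 1 (Arc) was called and 10 had an unadjusted p under 0.05, all higher. Over all 18820 genes, 966 were higher at that p. Dusp1, a nuclear phosphatase of MAP kinases, was at 10.61, 10.61 and 10.18 in the control SI SCs and at 10.92 and 10.39 in the control Sto SCs, against 9.70 in the SI organoids and 7.98 in the Sto organoids (1.67 ± 0.41, adjusted p = 0.164). Dusp5 had a difference of 1.15 ± 0.21 (adjusted p = 0.104) and Ppp1r15a, which restores translation after stress, of 1.20 ± 0.31 (adjusted p = 0.178). Among 18 Fgf and MAPK feedback targets, 1 (Egr1) was called, with a median of 0.205.

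Lists of other stress responses had 0 called members. Over all genes 0.0638% were called higher and 0.0956% lower, so 0 was the likely count for lists this short. The heat shock list had 12 of its 15 genes measured, 0 called and a median of -0.042. Hspa1a and Hspa1b had no measured value, so the list says nothing of these 2 heat shock genes. The p53 targets had 14 measured members, 0 called and a median of 0.054. The unfolded protein and amino acid response had 16, 0 and 0.151. Hypoxia and glycolysis genes had a median of 0.195 with 0 of 22 called, and in 12 of the 22 every sorted array was above the whole array of its origin. Over all genes that share was 10.4%. Adm, a hypoxia-induced peptide hormone, was between 8.67 and 10.26 in sorted cells and at 6.34 (SI) and 7.96 (Sto) in whole organoids (2.42 ± 0.53, adjusted p = 0.128). Bnip3, a mitophagy receptor, differed by 1.14 ± 0.22 (adjusted p = 0.114) and Vegfa by 0.80 ± 0.17 (adjusted p = 0.127). For all 3 every sorted array was above both whole arrays, but none was called.

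**Figure D2:**
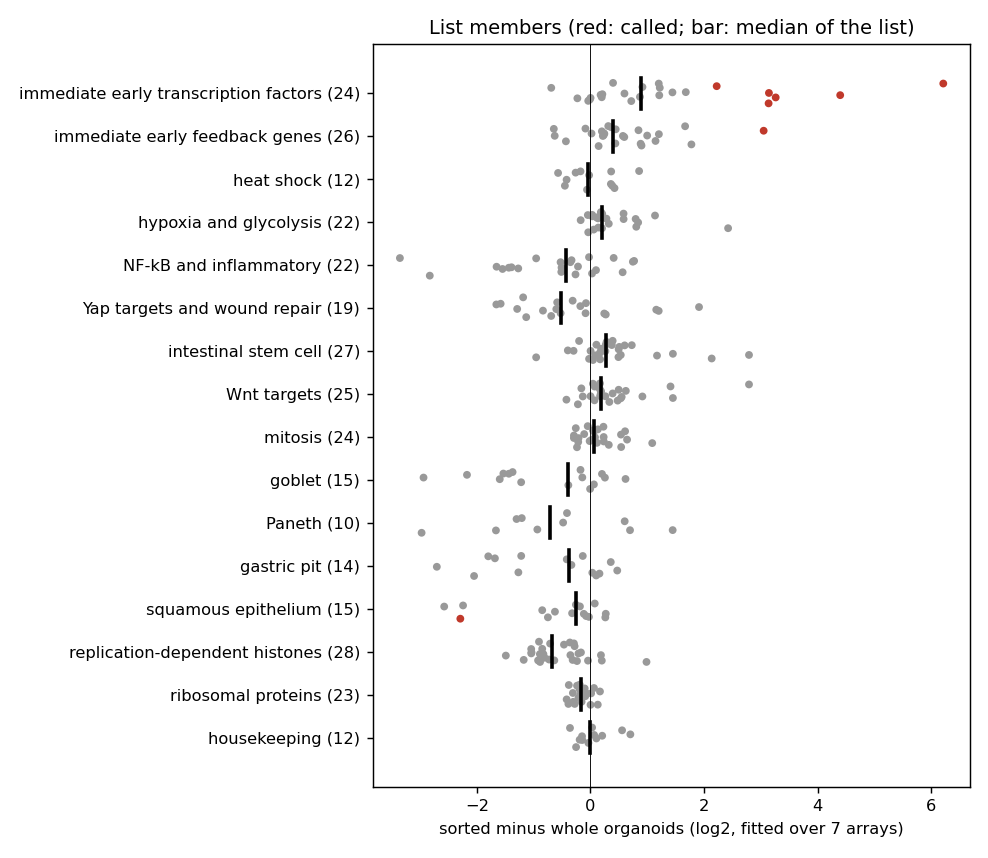
Fitted sorted minus whole difference (x axis, log2) of every measured member of 16 gene lists (y axis, number of members in parentheses); red points are called, grey points are not, and the black bar is the list's median. The immediate early factors reach furthest to the right, with a median of 0.893, and the histones have a median of -0.674.

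The 18 genes called lower in sorted cells included serine protease inhibitors, a cornified envelope protein, genes best known from blood cells and an antagonist of bone morphogenetic proteins. For all 18, every sorted array was below the whole array of its origin, which was so for 15.4% of all genes. Here too the call selects such genes, so this is no separate support. In bulk RNA, fewer cells of a type and less RNA per cell cannot be told apart. These calls were fragile: 0 genes were called lower by limma when any one of control SI SCs 1, 2 or 3 was left out, while 1877, 2322 and 3071 genes of either direction then had an unadjusted p under 0.05. With all 7 arrays, 1432 genes were lower at that p.

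Serpinb9b, an inhibitor of serine proteases, had the largest fall. It was at 5.45, 5.84 and 5.06 in the control SI SCs and at 5.52 and 6.82 in the control Sto SCs, against 9.39 in the SI organoids and 9.53 in the Sto organoids. The arms were far apart, with a difference of -3.67 ± 0.37 (12.7-fold, adjusted p = 0.0383). It belongs to a family of close paralogs, so its probes may also detect relatives. Trex2, an exonuclease of keratinocytes, was between 6.12 and 7.36 when sorted and at 9.25 and 9.14 when whole (-2.46 ± 0.28, adjusted p = 0.0412). Ivl, the cornified envelope precursor involucrin, was at 4.76, 4.65 and 4.12 in the control SI SCs, at 5.29 and 5.32 in the control Sto SCs and at 7.24 and 7.11 in the whole organoids (-2.29 ± 0.26, adjusted p = 0.0412). S100a14, a calcium-binding epithelial protein, was between 6.04 and 7.18 when sorted and at 9.41 and 8.33 when whole (-2.25 ± 0.24, adjusted p = 0.0383).

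Ivl was the only called member of the squamous epithelium list, which had 15 measured members and a median of -0.257. The summed linear signal of that list was 4860 to 12000 in the sorted arrays and 14100 and 16300 in the whole arrays. Every sorted array was below the whole array of its origin for 8 members, and for 15.4% of all genes. Sprr1a, another envelope precursor, was between 8.36 and 10.25 when sorted and at 12.03 (SI) and 11.38 (Sto) when whole (-2.24 ± 0.43, adjusted p = 0.111). Krt4, a keratin of stratified mucosa, differed by -2.58 ± 0.59 (adjusted p = 0.138). The basal squamous markers Krt5 and Trp63 differed by -0.028 and 0.075.

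Another 3 called falls are best known from blood cells. Dok2, a docking adaptor of kinase signalling, was at 4.79, 4.58 and 4.15 in the control SI SCs, had a mean of 5.06 in the control Sto SCs, and was at 7.39 and 7.01 in the whole organoids (-2.44 ± 0.26, adjusted p = 0.0383). Laptm5, a lysosomal membrane protein, was between 4.44 and 5.78 when sorted and at 6.57 and 7.97 when whole (-2.14 ± 0.22, adjusted p = 0.0383). Il18rap, a subunit of the interleukin 18 receptor, was between 3.29 and 4.33 when sorted and at 5.26 and 5.48 when whole (-1.58 ± 0.19, adjusted p = 0.0483). The immune marker list had 0 of its 15 members called and a median difference of 0.052. Its summed signal went opposite ways by origin. It was 680 to 717 in the sorted SI arrays against 913 in the whole one, and 1940 and 2040 against 1510 in Sto. Ptprc and Cd3e, which define leukocytes and T cells, were at or under 4.34 on all 7 arrays. Cd68, a lysosomal marker of macrophages, was 1.33 ± 0.21 higher in sorted cells (adjusted p = 0.0803) and Cd14 was 1.40 lower, neither called.

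The other named falls were Plac8 (-2.14 ± 0.25), Mapk11, which encodes a p38 kinase (-1.92 ± 0.23), Phgr1 (-1.90 ± 0.17), R3hdml (-1.90 ± 0.22) and Nbl1, which binds bone morphogenetic proteins (-1.89 ± 0.17). Plac8 was at 9.39 to 9.93 in the sorted cells against 11.43 in the organoids of SI, and at 7.77 and 8.24 against 10.57 in Sto. Phgr1 was at 6.33 to 6.59 against 8.36 in SI and at 4.89 and 5.42 against 7.06 in Sto. Both genes were lower in sorted Sto than in sorted SI cells. The 6 called genes left, given to complete the 18, were Cyp21a1, Serpinb6b, Mgst3, Cysrt1, Map6 and Rilpl2, with differences from -2.27 to -1.01. Cyp21a1 and Serpinb6b had arms that overlapped. Both have close paralogs.

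**Figure D3:**
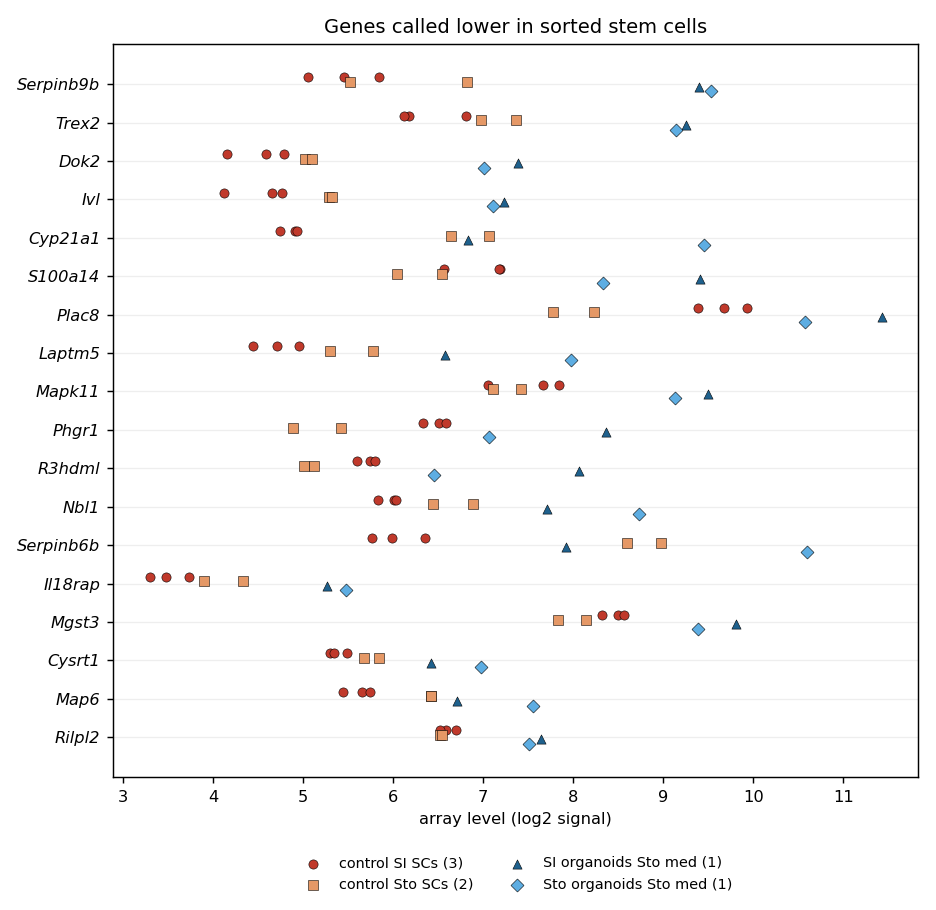
Log2 level of the 18 genes called lower in sorted stem cells, on each of the 7 arrays (x axis, log2 signal; symbols for the 4 groups as in the legend). In 16 of the 18 rows the 5 sorted arrays all lie left of both whole arrays, and Cyp21a1 and Serpinb6b are the exceptions.

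Lists of differentiated cell types had 0 called members apart from Ivl. Medians were above 0 for enterocyte (0.054), gastric neck and pyloric gland (0.201), chief (0.043) and parietal (0.108) genes, and below 0 for tuft (-0.178), pit, goblet, Paneth and enteroendocrine genes. The gastric pit list had a median of -0.377, and 6 of its 14 members, all lower, had an unadjusted p under 0.05. In that direction 1432 of all 18820 genes had such a p. Anxa10 was at 6.33, 6.58 and 6.02 in the control SI SCs and at 10.24 and 9.45 in the control Sto SCs, against 10.16 in the SI organoids and 11.26 in the Sto organoids (-2.71 ± 0.52, adjusted p = 0.111). The whole SI organoids thus had a level of this gastric gene within the range of the Sto arrays. This was not particular to gastric medium. The SI organoids in intestinal medium had 11.44, 10.39 and 8.06, the 11.44 from the library labelled SI organoids SI med 1, whose Cdx2 level went against its label. Aldh3a1 differed by -2.05 ± 0.29 (adjusted p = 0.0649), Sult1c2 by -1.80 ± 0.33, Psca by -1.68 ± 0.28 (adjusted p = 0.0858) and Tff1, a trefoil peptide of pit mucus, by -1.27 ± 0.26. Muc5ac, the pit cell mucin that defines the lineage, was between 3.52 and 4.60 on all 7 arrays. Its difference lay above 0, at 0.471 ± 0.205 (adjusted p = 0.405, not called). Vsig1 (0.357) and Gkn1 (0.158) of the pit list also had differences above 0.

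The lists of intestinal secretory cells had 0 called members, and their medians were below 0 in SI, where the whole arm was 1 array. Goblet genes had a median of -0.39 (-0.733 in SI, 0.058 in Sto), Paneth genes of -0.709 (-1.879 in SI, -0.058 in Sto) and enteroendocrine genes of -0.211 (-0.481 in SI, -0.05 in Sto). Clca1, a goblet cell protein, was at 6.70, 7.64 and 5.24 in the control SI SCs against 10.60 in the SI organoids, and at 4.35 and 4.34 in the control Sto SCs against 6.02. Spink4 was between 8.72 and 9.95 against 11.77 in SI, and at 6.13 and 6.59 against 8.07 in Sto (-2.18 ± 0.38, adjusted p = 0.0988). Reg4, a secretory lineage gene, was at 7.48, 8.99 and 7.84 against 11.02 in SI and between 3.11 and 3.46 on the Sto arrays. Other members of these lists had differences above 0, none called. Among them were Retnlb (0.617 ± 0.719) and Agr2 (0.254 ± 0.193) of the goblet list. In the Paneth list Pla2g2a (1.447 ± 1.774) and Mmp7 (0.602 ± 0.585) were examples, and in the enteroendocrine list Isl1 (1.142 ± 0.855). Whether these medians differed between origins was not tested, and no member of the 3 lists was called in the test of that difference.

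The intestinal stem cell list had 27 measured members and 0 called. Its median was 0.268 (0.05 in SI, 0.322 in Sto), and 5 members, Lgr5 of the gate among them, had an unadjusted p under 0.05, all higher. In that direction 966 of all 18820 genes had such a p. Olfm4, a marker of intestinal stem cells, was at 7.35, 9.23 and 6.33 in the control SI SCs against 9.53 in the SI organoids, and at 3.62 and 3.97 in the control Sto SCs against 3.70 (-0.957 ± 0.77, adjusted p = 0.727). Tnfrsf19, a receptor and Wnt target known as Troy, was at 9.27, 9.32 and 8.89 in the control SI SCs and at 8.45 and 9.40 in the control Sto SCs, against 5.74 in the SI organoids and 6.84 in the Sto organoids. Its difference of 2.79 ± 0.36 missed the threshold (adjusted p = 0.0569). Smoc2 differed by 1.17 ± 0.34 (adjusted p = 0.227), mainly in Sto, where it was at 7.65 and 7.94 against 5.84. Aqp4 differed by 2.13 ± 0.42 (adjusted p = 0.118). Wnt targets as a group had a median of 0.186, with Nkd1, a feedback inhibitor, at 1.41 ± 0.32 (adjusted p = 0.137). Ascl2, a stem cell factor, ranged from 9.06 to 9.73 when sorted and was at 9.64 (SI) and 8.70 (Sto) when whole. Muc6, the mucin of pyloric glands, was at 11.05, 9.66 and 10.41 in the control SI SCs against 7.52 in the SI organoids, and at 12.65 and 12.44 in the control Sto SCs against 10.92 (2.27 ± 0.41, adjusted p = 0.104).

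Proliferation genes did not separate the arms. Mitosis genes had a median of 0.07, with 0.414 in SI and -0.228 in Sto, and DNA replication genes of -0.056. Mki67 ranged from 9.95 to 10.90 when sorted and was at 10.04 and 10.26 when whole. Cdkn2a, an inhibitor of the cell cycle that rises in ageing cultures, was between 5.32 and 5.82 when sorted and at 6.62 and 6.70 when whole (-1.02 ± 0.15, adjusted p = 0.0781). Replication-dependent histones, whose mRNAs end without a poly(A) tail, had 28 measured members and 0 called. Of these, 14 had an unadjusted p under 0.05 and were lower, as were 1432 of all 18820 genes. The histones had a median of -0.674, and 16 of the 28 had every sorted array below the whole array of its origin, as had 15.4% of all genes. Many histone genes are near-identical, so single members are uncertain. Among 372 small RNAs the median was -0.002.

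The inflammatory and wound repair lists had 0 called members and medians below 0. The NF-kB list had 22 measured members, 0 called, a median of -0.432 and 11 members with every sorted array below the whole array of its origin. Cxcl5, a neutrophil chemokine, was at 4.04, 4.01 and 3.48 in the control SI SCs against 6.28 in the SI organoids, and at 6.24 and 5.35 in the control Sto SCs against 10.19 (-3.36 ± 0.46, adjusted p = 0.0632). Il1a was between 2.98 and 4.50 when sorted and at 5.38 and 7.64 when whole (-2.83 ± 0.39, adjusted p = 0.0649). Tnf differed by -1.65 ± 0.27 (adjusted p = 0.0858) and Ccl20 by -1.55 ± 0.29 (adjusted p = 0.107). Yap targets and wound repair genes had a median of -0.526 over 19 members. Every sorted array was below the whole array of its origin for 10 of them and above it for 3. Over all genes such shares, for this list and the NF-kB list alike, were 15.4% below and 10.4% above. Il1rn (-1.66 ± 0.27), Ly6d (-1.58 ± 0.40) and Ajuba (-1.13 ± 0.19) had differences below 0. Ccn1, a matricellular protein induced within an hour of serum (1.91 ± 0.27, adjusted p = 0.0649), Hbegf, a ligand of the EGF receptor (1.20 ± 0.26), and Il33 (1.16 ± 0.20) had differences above 0. None of these 6 was called. Flna, which crosslinks actin, was between 9.213 and 10.001 when sorted and at 10.998 and 10.549 when whole, just outside the call (-1.24 ± 0.15, adjusted p = 0.0502). Cald1, another actin binder, differed by -1.11 ± 0.17 and Lama3, a laminin chain of the basement membrane, by -1.47 ± 0.26. Fn1, fibronectin, differed by -1.89 ± 0.56 (adjusted p = 0.231), and it carried most of the mesenchyme list's summed signal, 568 to 2960 in sorted and 3380 and 3860 in whole arrays. That list had 0 of 15 called and a median of -0.023.

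The sex-linked genes had a median of -0.373 (2.826 in SI, -4.244 in Sto), and in Sto the sorted and whole arrays differed in sex. The remaining lists, on metabolism, ribosomes, interferon, identity factors, actin, basement membrane, junctions, Notch, cell cycle inhibitors and other cell types, had 0 called members and medians between -0.319 and 0.201. Ribosomal protein genes had a median of -0.168, with 16 of 23 members below the whole array of their origin on every sorted array. Of all genes, 15.4% were so. Housekeeping genes had a median of -0.005.

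Whether sorting differed in effect between the tissues was tested with the product of sorting and origin, and 3 genes were called (0.0159% of those tested; 841 at an unadjusted p under 0.05). Wfdc2, a secreted protease inhibitor, was at 11.07, 10.81 and 10.54 in the control SI SCs and at 4.64 in the SI organoids. In Sto it was at 11.53 and 11.75 when sorted and at 11.93 when whole. It was the whole SI array that stood apart, and the sorted minus whole difference, Sto minus SI, was -6.46 ± 0.37 (adjusted p = 0.0171). Lrg1, a secreted glycoprotein, had the same form, at 8.78, 8.76 and 8.57 against 3.92 in SI and at 11.41 and 11.26 against 10.71 in Sto, a difference of -4.15 ± 0.29 (adjusted p = 0.0353). Serpina3n, an acute phase protease inhibitor, was instead at 10.37 and 10.35 against 4.17 in Sto, and at 4.61, 4.29 and 4.49 against 4.00 in SI, a difference of 5.73 ± 0.30 (adjusted p = 0.0171). The spread in this test came only from the sorted arrays, since each whole group had 1 array. All 3 calls were lost without control SI SCs 1 or 3 or without control Sto SCs 1, when 0 genes were called, and that of Lrg1 without any of the 5 sorted arrays. The test was not past the threshold for any of the 30 genes called in the additive comparison.

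**Figure D4:**
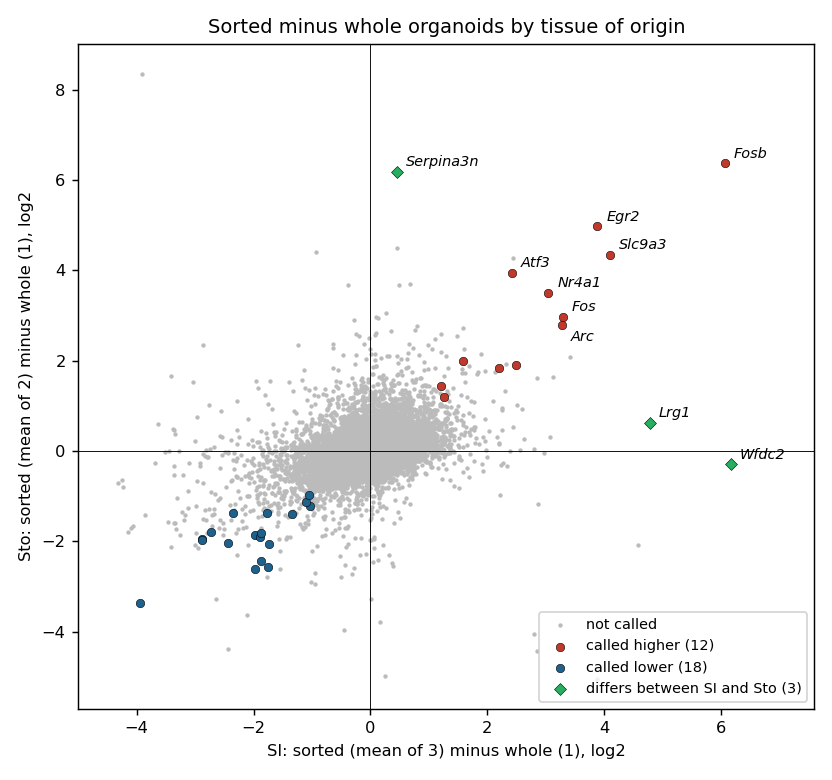
Sorted minus whole difference in SI (x axis, mean of 3 sorted arrays minus 1 whole array, log2) against the same in Sto (y axis, mean of 2 sorted minus 1 whole) for the 18820 genes; red and blue points are called higher and lower, green diamonds are the 3 genes whose difference was unequal between the tissues. Fosb lies at 6.06 and 6.38, and Wfdc2 at 6.17 in SI and -0.29 in Sto.

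A further sorted against whole difference can be formed from arrays outside the 7: the sorted Cdx2null SI SCs (n = 2, genotype Cdx2null / Lgr5-EGFP, with the floxed allele removed by tamoxifen-activated Cre) and the whole Sto organoids in intestinal medium (Sto organoids SI med, n = 2, genotype Cdx2-/fl / Lgr5-EGFP). They differ in genotype, tissue and medium as well as in sorting, so their values stand beside the first comparison and do not test sorting. The labels also need care. Cdx2 was at 8.41 in the library labelled Cdx2null SI SCs 1 and at 4.88 in Cdx2null SI SCs 2. Its level was 5.52 in the array labelled SI organoids SI med 1, against 9.92 and 9.67 on the other arrays of that group. Cdx2 thus went against the label of Cdx2null SI SCs 1 and of SI organoids SI med 1. By the methods, the Cdx2 probes span all exons of the gene, also what recombination leaves, so the level checks the label only in part. In this pair of groups 921 genes were called higher (4.89%) and 731 lower (3.88%). The count was 365 in total when the library labelled Cdx2null SI SCs 1 was left out, 273 without Cdx2null SI SCs 2, and 0 when either array of the Sto organoids was left out.

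Of the 12 genes called higher in the first comparison, 12 were higher in this one too and 9 were called. Fosb differed by 6.19 (adjusted p = 0.0017), Slc9a3 by 6.80 (adjusted p = 0.00434), Nr4a1 by 3.87 (adjusted p = 0.0182), Egr2 by 3.60 (adjusted p = 0.0196), Ppargc1a by 3.10 (adjusted p = 0.00869), Atf3 by 2.65 (adjusted p = 0.0161), Egr1 by 2.16 (adjusted p = 0.0107) and Fos by 2.11 (adjusted p = 0.012). Arc differed by 1.17 and was not called (adjusted p = 0.378), since the Sto organoids in intestinal medium had 6.58 and 6.18 and the Cdx2null SI SCs 8.58 and 6.52. With the first Cdx2null library left out, 12 were higher and 7 called. Of the 18 genes called lower, 14 were lower and 8 called, and 54.1% of all genes were lower in this pair. Without that library, 16 were lower and 5 called. Ivl had the largest fall of them, -5.15 (adjusted p = 0.00579), followed by Trex2 at -3.96 (adjusted p = 0.00434). Il18rap differed by 0.18 and Cyp21a1, Map6 and Rilpl2 were also not lower. The histones had a median of 1.362 here, opposite in sign to the first comparison, and mitosis genes one of 3.006.

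**Figure D5:**
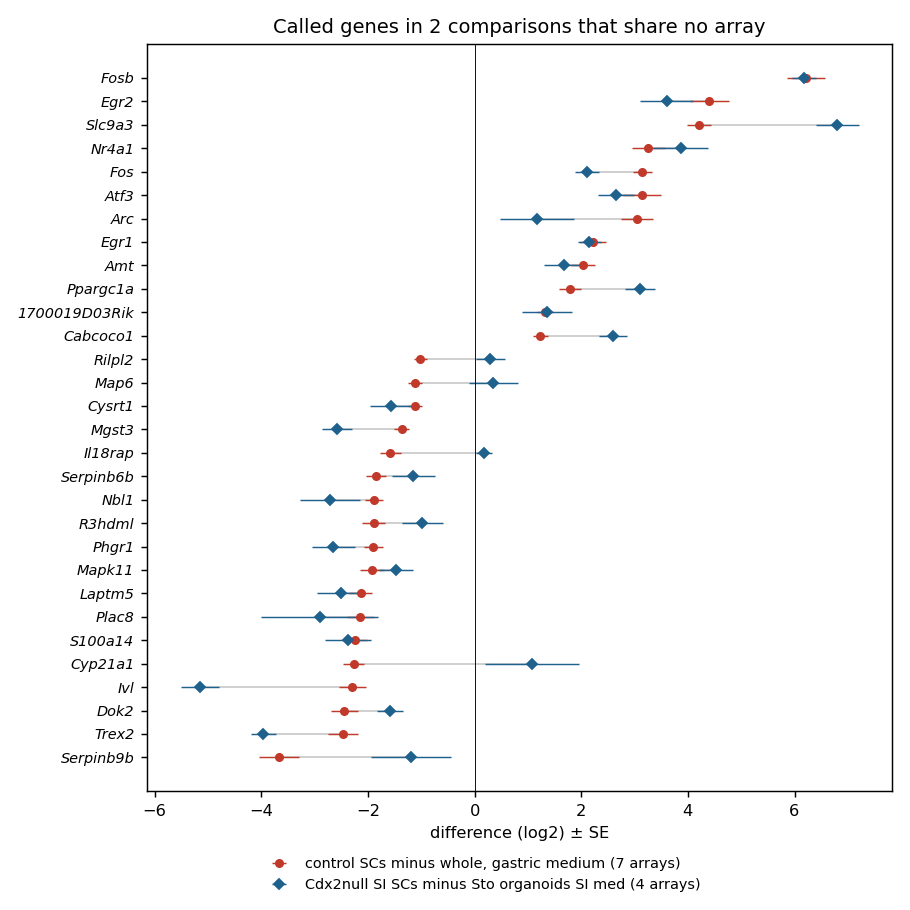
Fitted difference with its SE (x axis, log2) of the 30 called genes in the 7 arrays in gastric medium (red circles, sorted minus whole) and in 4 other arrays (blue diamonds, Cdx2null SI SCs minus Sto organoids in intestinal medium). All 12 genes called higher are right of 0 in both, and 4 of the 18 called lower are right of 0 in the second.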

How the data were processed

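Expression in 14 samples was measured on Affymetrix Mouse Gene ST arrays, 1 per sample. The authors summarised the scans by RMA-sketch and deposited log2 expression values for 35556 probe sets, which were used without further normalisation; 0 value columns were left unmatched. Because RMA compresses weak signals, folds of genes near background are understated, and precision is limited by how few arrays there were. Of the probe sets, 21218 had 1 gene in the platform annotation, 1881 had several and 12457 had none; symbols were updated through RefSeq GRCm38.p6, and only probe sets of 1 gene were kept. Control SI SCs 3 had been rounded to 1 decimal on the linear scale before its log2 was taken.

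Differences were fitted with limma 3.58.1 in R 4.3.3 (origin and sorting as additive terms, 2-sided, Benjamini-Hochberg over 18820 genes; called at adjusted p under 0.05 and at least 2-fold), and the fit was tested on simulated data. The product of origin and sorting, and Cdx2null SI SCs against Sto organoids SI med, were fitted likewise. Genes named are Cdx2, Lgr5, the measured immediate early factors, the 12 largest called rises and falls with separate arms, genes called for a difference between tissues, and members of 44 lists, called or given as not called. The comparison, members and lists were chosen with earlier results of these data known. The alternatives were other array sets, normalisations, filters, probe set rules, terms and tests, and each array left out in turn.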

Additional observations from a re-analysis of the deposited data

Results flagged for a closer look

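The sorted minus whole difference was unequal between SI and Sto for 3 genes by the test of that difference (limma). Sto minus SI, it was -6.458 for Wfdc2, -4.15 for Lrg1 and 5.727 for Serpina3n, on the log2 scale. On the other whole SI organoid arrays, in intestinal medium, Wfdc2 was at 11.19, 7.22 and 4.42, Lrg1 at 9.90, 4.34 and 3.95 and Serpina3n at 8.43, 3.83 and 3.64, so these genes varied among the arrays of 1 group. The highest of each came from the library labelled SI organoids SI med 1, in which Cdx2 was at 5.52, against 9.92 and 9.67 on the other 2 arrays of that group. With all 14 arrays in the fit, where that spread counts, none of the 3 was called.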

How the results depend on the processing

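The 30 calls became 8 with all 14 arrays and 1 mean per group, 93 with 13 of them (without the library labelled SI organoids SI med 1), 2 with no origin term, 134 after quantile normalisation, 243 after centring arrays on their medians, 109 among genes with a mean of at least 6, 82 with a trend and robust eBayes and 116 with sex as an added term. The methods' t-test gave 325 at its unadjusted threshold and 0 after Benjamini-Hochberg adjustment (limma: 2398 at an unadjusted p under 0.05). Calls split into 54 higher and 80 lower under quantile normalisation and 75 and 168 under centring. Leaving out 1 array gave 3 to 59 calls, lowest without control SI SCs 1 or 2 and highest without the Sto organoids. Without control SI SCs 3 there were 6, without control Sto SCs 2 there were 12 and without the SI organoids 18. The 3 genes that differed between tissues became 1 with all 14 arrays, 5 after quantile normalisation, 16 after centring, and 0 to 6 with 1 array left out. The 1652 calls of Cdx2null SI SCs against Sto organoids SI med became 1539 with a replicate block, and 0 to 365 with 1 array left out. Their same-numbered arrays deviated together little (correlation 0.0626), so the numbers were not taken to pair them, and the blocked fit changed no direction stated. No paired analysis was possible for the 7 arrays because the whole groups have 1 array each. The cause of these changes was not tested. Fosb and Fos kept their call under every alternative but the adjusted methods' t-test. Signs turned for Fosl2 (0.036 after quantile normalisation; -0.295 to 0.247 with 1 array left out), Ier5 (0.026; -0.132 to 0.123), Myc (-0.014 with all 14 arrays and with 13; -0.259 to 0.232), Junb (-0.02 to 0.393), Nr4a2 (-0.087 to 0.543) and Maff (-0.519 to 0.092). Over all alternatives, 1264 of 1665 values of named genes kept their direction and side of the threshold, 207 lost the call and 177 gained one.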
